A study of Mus musculus with 6 samples.

Results

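Transcripts of the MHC class II genes and of their regulator Ciita were measured by RNA-seq in whole mouse pancreas after deletion of the acinar transcription factor Ptf1a. The 6 genes, H2-Aa, H2-Ab1, H2-Eb1, Cd74, H2-DMa and Ciita, were chosen by symbol from the 10245 genes of the deposited expression table, and all 6 were present. Control mice carried the genotype Ptf1a(CreER/+) and were 4 months old, and Ptf1a cKO mice carried Ptf1a(CreER/fl) and were 5 months old, with 3 mice in each group and 1 library per mouse. All 6 mice received tamoxifen by gavage at 0.25 mg per g on days 0, 1 and 2 and were sacrificed on day 14. Control mouse 1 and Ptf1a cKO mouse 2 were male and the other 4 were female. The inducible Cre recombinase is expressed from the Ptf1a locus, so every control animal also carried 1 CreER allele and was exposed to tamoxifen. According to the study, this allele makes no Ptf1a protein, so the controls were heterozygous for Ptf1a and not wild type. Deletion is aimed at acinar cells, while the RNA came from every cell of the organ. Age followed genotype, so the 2 cannot be told apart.

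MHC class II molecules are αβ dimers that display peptides from the endosomal pathway to CD4 T cells. They are abundant on dendritic cells, macrophages and B cells, and interferon-γ can induce them in many other cells, epithelial cells included. The invariant chain Cd74 escorts newly made dimers and blocks their groove, cathepsins trim it down, and the H2-DM dimer exchanges the remaining fragment for peptide. Ciita is the coactivator that binds no DNA itself and is recruited to class II promoters by the RFX, CREB and NF-Y factors sitting on a conserved X and Y box. In healthy pancreas, class II expression is mostly ascribed to resident immune cells.

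The promoters of H2-Aa, encoding the α chain of I-A, and H2-Eb1, encoding the β chain of I-E, are shown because they carry the X-Y arrangement through which Ciita acts. Each stretch covers the 150 bases before the RefSeq transcription start, read 5′ to 3′ on the strand of the gene, in GRCm38.p6. The H2-Aa stretch lies at chr17:34287824-34287973 on the minus strand and the H2-Eb1 stretch at chr17:34305717-34305866 on the plus strand. Capitals mark GCAAC, in the X box, and ATTGG, the NF-Y core of the Y box.
H2-Aa promoter: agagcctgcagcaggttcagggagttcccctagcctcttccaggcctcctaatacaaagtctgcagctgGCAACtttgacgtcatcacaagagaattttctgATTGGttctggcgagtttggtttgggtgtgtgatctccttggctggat
H2-Eb1 promoter: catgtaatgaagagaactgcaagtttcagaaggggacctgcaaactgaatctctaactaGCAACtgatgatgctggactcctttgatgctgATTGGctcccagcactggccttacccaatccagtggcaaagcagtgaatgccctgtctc
In H2-Aa, GCAAC began 81 bases and ATTGG 48 bases before the start, a distance of 33 bases. In H2-Eb1 they began 91 and 59 bases before the start, a distance of 32 bases. The letters GCAAC were chosen after the sequences were seen. A GCAAC followed by ATTGG at a distance of 25 to 40 bases on the strand of the gene was held by 0.39% of the 32851 RefSeq promoter windows of 300 bases, and by 0.794% when either strand was counted. With the looser letters GNNACNG for the X box, which overlap GCAAC only in part, the pair was found in H2-Eb1 and not in H2-Aa, and in 2.85% of all windows on either strand. On its own GNNACNG was held by 88.5% of windows and ATTGG by 37.4%. H2-DMa had entries for 2 transcription starts, and neither window held a pair. A match describes letters in a window and not bound protein. RefSeq windows were matched for 3 of the 6 genes.

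The targeted gene was checked first. Ptf1a stood at 566.0, 601.0 and 652.0 normalized read counts in control libraries 1 to 3 and at 19.8, 70.1 and 10.2 in Ptf1a cKO libraries 1 to 3, a log2 fold change of -4.41 (adjusted p = 0.000329, limma). The library of Ptf1a cKO mouse 2 kept the most Ptf1a. Of 23 acinar markers, all in the table, 18 fell and 0 rose, where 33.9% of all genes were called in either direction. The largest falls were those of Cela2a (-3.11), Cel (-2.95) and Pnliprp1 (-2.88), in log2 fold change. Together the 23 markers took 75.6% to 79.0% of the normalized counts on genes in controls, and 45.4%, 60.2% and 34.9% in Ptf1a cKO libraries 1 to 3. The values were scaled by the authors so that the median gene lay between 125.0 and 128.5 in every library, and they hold no sequencing depth, so no counting error can be given. If every library is instead brought to the same total, the median log2 fold change of all genes moves from 0.0364 to 1.49, and the share of called genes that are higher in Ptf1a cKO moves from 50.4% to 98.7%. With the same total but without digestive enzymes, these become 0.29 and 79.7%. Changes below are relative to the scaling of the authors unless said otherwise.

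All 6 class II genes had a higher mean in Ptf1a cKO pancreata than in controls, by 2.39-fold to 4.59-fold. H2-Aa, H2-Ab1 and Cd74 passed the test across all genes, and H2-Eb1, H2-DMa and Ciita did not. The rise was carried by the same 2 animals for every gene, Ptf1a cKO mice 1 and 3, whereas mouse 2 had control levels of most of them. Of the 6 genes, 3 (50%) were called higher at an adjusted p under 0.05 (limma), where 17.1% of all genes were. Their median log2 fold change was 1.71, against 0.0364 over all 10245 genes. In 1 of the 6, all 3 Ptf1a cKO values exceeded all 3 control values, where 26.5% of all genes did so. An exact permutation test of 3 against 3 cannot give a two-sided p below 0.1. It gave 0.1 for H2-Aa, 0.2 for H2-Ab1, H2-Eb1 and Cd74, and 0.3 for H2-DMa and Ciita.

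**Figure D1:**
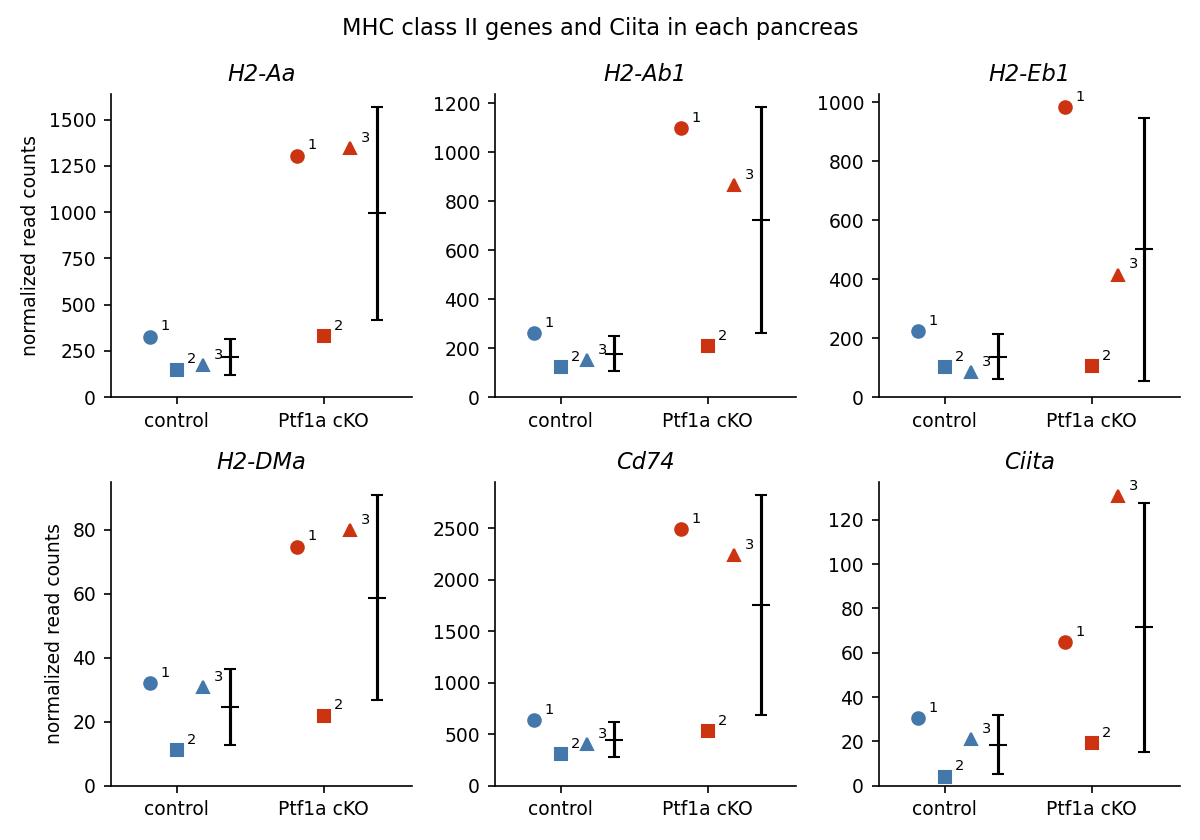
Normalized read counts (linear axes from 0) of the 6 class II genes in each library; numbers are mouse numbers within a group, circles, squares and triangles mark mice 1, 2 and 3, and black bars give the mean ± SD of 3 mice. Ptf1a cKO mice 1 and 3 lie above every control for all 6 genes, and mouse 2 does so for H2-Aa alone, at 329.1 against 326.5.

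H2-Aa, the I-A α chain, stood at 326.5, 148.6 and 173.5 normalized counts in control mice 1 to 3 and at 1305, 329.1 and 1344 in Ptf1a cKO mice 1 to 3. The groups did not overlap, but the lowest Ptf1a cKO value and the highest control value almost touched. The mean rose from 216.2 ± 96.33 to 993.0 ± 575.3 (SD, n = 3 each), 4.59-fold. The log2 fold change, on the log2(value + pseudocount) scale, was 2.02 (SE 0.505, adjusted p = 0.0149), and the exact permutation p was 0.1, the smallest this design can give.

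H2-Ab1 encodes the β chain that pairs with H2-Aa. Its values were 260.6, 121.8 and 152.1 in controls and 1100, 208.5 and 864.5 in Ptf1a cKO mice. Mouse 2 lay inside the control range here, and mice 1 and 3 lay at least 3.32 times as high as the highest control. The mean rose 4.06-fold, from 178.2 ± 72.99 to 724.2 ± 461.9 (log2 fold change 1.77, SE 0.544, adjusted p = 0.0335).

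H2-Eb1, the I-E β chain, stood at 224.5, 101.9 and 85.22 in controls and at 983.3, 104.7 and 415.4 in Ptf1a cKO mice. Mouse 1 was well above mouse 3, and mouse 2 was below the control mean of 137.2. H2-Eb1 missed the threshold, with a 3.65-fold difference in means (log2 fold change 1.46, SE 0.682, adjusted p = 0.125). Without Ptf1a cKO mouse 2 it passed (2.32, adjusted p = 0.00254). Its usual partner, the I-E α chain H2-Ea, is annotated as a pseudogene in the reference genome because the reference strain does not express it, and appears in the table as H2-Ea-ps. H2-Ea-ps had 180.7, 76.42 and 96.25 normalized counts in controls and 682.4, 74.51 and 307.6 in Ptf1a cKO mice, so it was detected in all 6 libraries, with mouse 2 at control level as for H2-Eb1 (log2 fold change 1.17, adjusted p = 0.198). The other class II chains listed, H2-Eb2, H2-DMb1, H2-DMb2, H2-Oa and H2-Ob, were not analysed here.

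Cd74, the invariant chain, was the most abundant of the 6. Control mice had 635.7, 304.6 and 402.4 normalized counts and Ptf1a cKO mice 2491, 529.8 and 2241. Ptf1a cKO mouse 2 lay below control mouse 1, and the other Ptf1a cKO mice were at least 3.53 times as high as it. The mean rose 3.92-fold, from 447.6 ± 170.1 to 1754 ± 1067 (log2 fold change 1.74, SE 0.526, adjusted p = 0.0313).

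H2-DMa, the α chain of the peptide exchange factor, was expressed at a far lower level. Its values were 32.01, 11 and 30.88 in controls and 74.65, 21.85 and 79.84 in Ptf1a cKO mice, with mouse 2 between the controls. The 2.39-fold difference in means was the smallest of the 6 genes and missed the threshold (log2 fold change 1.08, SE 0.503, adjusted p = 0.126).

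Ciita, the coactivator of all of these genes, was the least abundant. It stood at 30.58, 4.05 and 21.01 in controls and at 64.81, 19.06 and 130.7 in Ptf1a cKO mice. Mouse 3 lay well above mouse 1, whereas mouse 1 was above mouse 3 for both β chains, and mouse 2 again lay between the controls. The 3.86-fold difference in means missed the threshold (log2 fold change 1.68, SE 0.698, adjusted p = 0.0909). Exons of Ciita overlap those of Dexi in the GENCODE M21 annotation, and strand-specific counting is not stated, so reads of the 2 genes may not be fully separable. Dexi itself was lower, at 274.0 to 369.8 normalized counts in controls and 122.5 to 171.8 in Ptf1a cKO mice (log2 fold change -1.08, adjusted p = 0.00157; 0.397 under the same total). Only 1 control library had Ciita, and 2 had H2-DMa, at or above 27.6. Every gene of the table reaches this value in at least 1 library, and Ciita and H2-DMa did so in controls as well as in Ptf1a cKO mice.

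Single libraries decided the calls. Of the 6 genes, 6 passed without Ptf1a cKO mouse 2, 3 without control mouse 1, and 1 (H2-Aa, adjusted p = 0.0491) without Ptf1a cKO mouse 3, whereas 0 passed without control mouse 2, control mouse 3 or Ptf1a cKO mouse 1. The log2 fold change of H2-Aa stayed between 1.67 and 2.68 over these 6 fits, that of H2-Ab1 between 1.31 and 2.5 and that of Cd74 between 1.34 and 2.46.

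Divided by the summed exon length of each gene in GENCODE M21, the levels ran in the order Cd74, H2-Aa, H2-Ab1, H2-Eb1, H2-DMa and Ciita, and this order held in 6 of 6 libraries. Control means were 316.1 ± 120.1 normalized counts per kb for Cd74, 191.7 ± 85.4 for H2-Aa, 147.0 ± 60.22 for H2-Ab1, 82.21 ± 45.56 for H2-Eb1, 9.231 ± 4.429 for H2-DMa and 2.255 ± 1.634 for Ciita (SD, n = 3). In Ptf1a cKO pancreata they were 1239 ± 753.9, 880.3 ± 510.0, 597.5 ± 381.1, 300.3 ± 267.0, 22.03 ± 12.03 and 8.696 ± 6.823 per kb in the same order. Across mice, neighbours among the first 4 overlapped in both groups. H2-Eb1 and H2-DMa were apart in both groups, and H2-DMa and Ciita were apart in controls and overlapped in Ptf1a cKO mice. The structural chains and Cd74 thus formed an abundant set, with the exchange factor and the regulator far below.

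The 6 genes varied together between mice of the same genotype. Ptf1a cKO mouse 2 was the lowest of its group for 6 of 6 genes, which was true of 34.4% of all genes, and mice 1 and 3 exceeded every control for 6 of 6, which was true of 32.7%. Among all genes for which mice 1 and 3 exceeded every control, mouse 2 did so too in 81.1%, against 1 of the 6 class II genes. Among controls, mouse 1 was the highest for 6 of 6 genes (30.2% of all genes) and mouse 2 the lowest for 5. Summed over the 6 genes, Ptf1a cKO mice 1, 2 and 3 stood at 5.89, 1.19 and 4.96 times the control mean. These counts share the same libraries and carry no test.

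**Figure D2:**
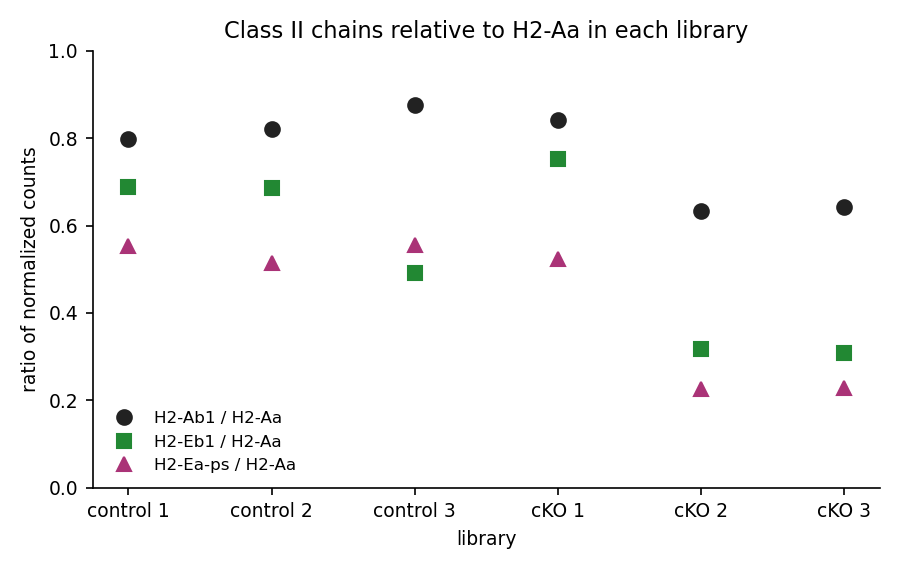
Ratio of H2-Ab1 (circles), H2-Eb1 (squares) and H2-Ea-ps (triangles) to H2-Aa, each as normalized counts, in the 6 libraries. In Ptf1a cKO mice 2 and 3 the 2 I-E chains drop to between 0.226 and 0.318 of H2-Aa, while Ptf1a cKO mouse 1 stays with the controls. H2-Ab1 is also lowest in mice 2 and 3, at 0.633 and 0.643.

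Within a library, H2-Ab1 kept a nearly fixed proportion to H2-Aa, and the I-E chains varied more. H2-Ab1 relative to H2-Aa was 0.798, 0.82 and 0.877 in controls and 0.842, 0.633 and 0.643 in Ptf1a cKO mice 1 to 3, a range of 1.38-fold while H2-Aa itself spanned from 148.6 to 1344. H2-Eb1 relative to H2-Aa was 0.688, 0.686 and 0.491 in controls and 0.753, 0.318 and 0.309 in Ptf1a cKO mice. H2-Ea-ps relative to H2-Aa was 0.553, 0.514 and 0.555 in controls and 0.523, 0.226 and 0.229 in Ptf1a cKO mice. Both I-E chains were therefore low relative to H2-Aa in the same 2 animals, mice 2 and 3, of which mouse 2 had low and mouse 3 high class II levels. H2-Ab1 was also lowest relative to H2-Aa in these 2 mice, though by less. Ratios to H2-Aa alone do not show how far the I-E chains departed from I-A as a whole. H2-Ea-ps relative to H2-Eb1 lay between 0.694 and 0.741 in the 3 Ptf1a cKO mice and between 0.75 and 1.13 in controls. These ratios do not depend on how libraries are scaled against each other. They were not tested between groups.

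H2-Aa relative to Cd74 stayed within 0.431 to 0.621 over the 6 libraries. The low genes varied more against Cd74, from 0.03 to 0.0767 for H2-DMa and from 0.0133 to 0.0583 for Ciita. The lowest Ciita ratio was that of control mouse 2, whose Ciita value of 4.05 was close to the pseudocount of 3.41 normalized counts.

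The genes of the wider pathway did not move as a block. Among 8 genes of endosomal antigen processing, 5 rose, 2 fell and 1 was not called, where 33.9% of all genes were called in either direction. Among 8 promoter factors the counts were 1, 1 and 6, and among 9 genes leading from interferon-γ to Ciita they were 2, 1 and 6. The median log2 fold changes of these lists were 0.846, 0.108 and 0.23.

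**Figure D3:**
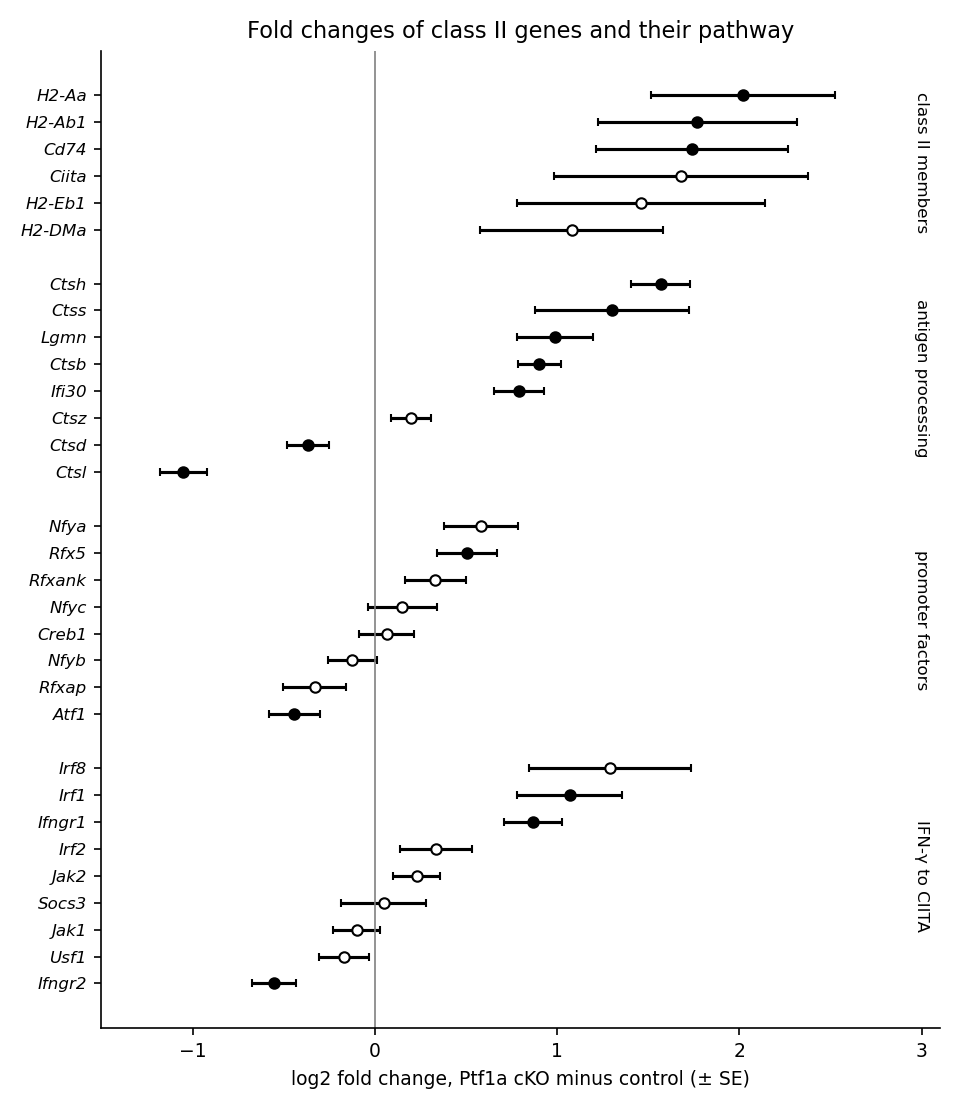
Log2 fold change (Ptf1a cKO minus control, ± SE, n = 3 each) of the class II genes, antigen processing genes, promoter factors and interferon-γ signaling genes; filled points have an adjusted p under 0.05 (limma). The class II genes have the highest list median, 1.71, and wide errors, while Ctsl, at -1.05, is the lowest point.

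Cathepsin S, the protease best known for trimming the invariant chain in professional antigen-presenting cells, had 74.09, 51.76 and 107.8 normalized counts for Ctss in controls and 251.5, 87.56 and 300.5 in Ptf1a cKO mice. Like the class II genes, Ctss was high in mice 1 and 3 and within the control range in mouse 2 (log2 fold change 1.30, adjusted p = 0.0411). Cathepsin L, which does the same task in thymic epithelium, fell. Its Ctsl values were 2221, 2134 and 1963 in controls and 1109, 1060 and 890.2 in Ptf1a cKO mice (log2 fold change -1.05, adjusted p = 0.000494), although scaling to the same total turned this to 0.446. Unlike Ctss, Ctsl was alike in the 3 Ptf1a cKO mice. The call of Ctss was lost without control mouse 1 or 2 or Ptf1a cKO mouse 1 or 3, and that of Ctsl was kept without any 1 library.

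Ctsh, an aminopeptidase of the lysosome, rose from 76.17, 57.3 and 66.21 to 219.3, 165.9 and 229.4 (log2 fold change 1.57, adjusted p = 0.000245). Ctsb (0.90, adjusted p = 0.00071), the asparaginyl endopeptidase Lgmn (0.99, adjusted p = 0.00676) and the thiol reductase Ifi30 (0.79, adjusted p = 0.00268) rose as well, in log2 fold change. For Ctsh, Ctsb, Lgmn and Ifi30, mouse 2 lay above every control. Ctsd fell slightly (log2 fold change -0.37, adjusted p = 0.0347), again with a reversed sign of 1.13 under the same total. The call of Ctsd was lost without any 1 control or without Ptf1a cKO mouse 1. Ctsz was at 0.20 (adjusted p = 0.184).

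Of the factors that sit on the X and Y boxes, the RFX subunit Rfx5 rose (log2 fold change 0.51, adjusted p = 0.0406) and the CREB family member Atf1 fell (-0.44, adjusted p = 0.0379; 1.02 under the same total). Rfx5 stood at 65.83, 53.73 and 58.57 normalized counts in controls and at 87.25, 71.24 and 100.5 in Ptf1a cKO mice. The log2 fold changes of the other RFX subunits, Rfxap and Rfxank, were -0.33 and 0.33, and those of the NF-Y subunits Nfya, Nfyb and Nfyc were 0.59, -0.12 and 0.15. Creb1 was at 0.07. The call of Rfx5 held without Ptf1a cKO mouse 2 and that of Atf1 without Ptf1a cKO mouse 1, and both were lost without any other library. Ciita varied more between mice than any of these 8 factors, none of which spanned more than 2.43-fold from its lowest to its highest library, against 32.3-fold for Ciita.

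Upstream of Ciita, the interferon-γ receptor chain Ifngr1 rose (log2 fold change 0.87, adjusted p = 0.00332), and Ifngr2 fell (-0.55, adjusted p = 0.00773; 0.905 under the same total). Irf1, an interferon-induced transcription factor that acts on the inducible Ciita promoter, had 122.0, 70.25 and 59.75 normalized counts in controls and 222.6, 117.9 and 193.3 in Ptf1a cKO mice (log2 fold change 1.07, adjusted p = 0.0202). Mouse 2 was the lowest Ptf1a cKO mouse for Irf1 and lay below control mouse 1, and the call of Irf1 was lost without control mouse 2 or 3 or Ptf1a cKO mouse 1 or 3. Irf8 was at 1.29 (adjusted p = 0.05, not called), and Jak1, Jak2, Irf2, Usf1 and Socs3 lay between -0.17 and 0.34. With 1 library left out, the count called higher in this list was 1 without control mouse 2, control mouse 3, Ptf1a cKO mouse 1 or Ptf1a cKO mouse 3, and 4 without Ptf1a cKO mouse 2. The cytokine gene Ifng itself was not analysed here.

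Genes that interferon-γ induces independently of Ciita showed the same order of mice. The 10 measured GTPases of this kind had control sums of 486.5, 206.2 and 329.9 normalized counts and Ptf1a cKO sums of 1275, 326.1 and 1222. Mouse 2 was the lowest Ptf1a cKO mouse for 10 of 10, mice 1 and 3 exceeded every control for 10 of 10, and control mouse 1 was the highest control for 10 of 10. Of these 10, 2 were called higher, Gbp2 (log2 fold change 1.19, adjusted p = 0.0386) and Igtp (1.73, adjusted p = 0.0488). This is near the share of all genes called higher, 17.1%. For Iigp1 the values were 63.81, 17.0 and 27.21 in controls and 332.7, 15.28 and 277.3 in Ptf1a cKO mice (1.80, adjusted p = 0.176). Leaving out 1 library at a time moved the count of these GTPases that were called from 0 to 9, and it was 0 without control mouse 2, control mouse 3 or Ptf1a cKO mouse 1 or 3 and 9 without Ptf1a cKO mouse 2.

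MHC class I genes, which are driven by the Ciita relative Nlrc5, rose in part. Of 10 genes, 5 rose, 1 fell and 4 were not called, where 33.9% of all genes were called in either direction. The count of rises was 3 without control mouse 2 and 9 without Ptf1a cKO mouse 2. B2m, the light chain of class I, had 786.9, 555.7 and 676.1 normalized counts in controls and 4037, 1092 and 2960 in Ptf1a cKO mice (log2 fold change 1.82, adjusted p = 0.00847). H2-K1 (1.46, adjusted p = 0.0109), H2-D1 (0.90, adjusted p = 0.0297, lost without control mouse 1 or 2 or Ptf1a cKO mouse 1 or 3) and the peptide-loading factor Tapbp (1.30, adjusted p = 0.00204) also rose. The immunoproteasome subunit Psmb10 fell (-2.03, adjusted p = 0.000476), from 1578, 1472 and 1184 normalized counts to 296.6, 523.2 and 253.5. Its control mean of 1411 was far above the 36.44 of the subunit Psmb8. Mouse 2 had the most Psmb10 of its group, as for most acinar markers, but the least for 9 of the 10 class I genes. What part of the Psmb10 level came from acinar cells was not tested. Nlrc5 was at 34.04, 10.92 and 5.90 in controls and at 71.84, 18.34 and 144.0 in Ptf1a cKO mice (1.86, adjusted p = 0.0667), with the same lowest and highest Ptf1a cKO mouse as Ciita.

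Likeness to the class II profile was measured over the 6 libraries as the root mean square difference of centred log2 values from the median profile of H2-Aa, H2-Ab1, H2-Eb1 and Cd74. The nearest genes outside the 6 were Igtp at 0.18, B2m at 0.272, Ifi47 at 0.319, Alb at 0.37, H2-K1 at 0.372, Plbd1 at 0.377, Psmb8 at 0.384 and Usp18 at 0.423, where the median over 10237 other genes was 1.2. Igtp and Ifi47 are interferon-inducible GTPases, Psmb8 is an immunoproteasome subunit and Usp18 an interferon-induced protease. Alb, which encodes serum albumin, is a gene of another kind in this company, with 37.77, 20.12 and 22.71 normalized counts in controls and 233.2, 68.92 and 230.0 in Ptf1a cKO mice. Ifi47, Plbd1 and Usp18 reached 27.6, as every gene of the table does in at least 1 library, in Ptf1a cKO libraries 1 and 3 only. Their place in the table thus rested on the order of mice searched for, and their nearness was partly set by it. Of the genes not used to define the profile, H2-DMa was at 0.518 with 34 other genes nearer, and Ciita at 0.576 with 55 nearer. H2-Eb1, at 0.393, had 7 outside genes nearer although it helped to define the profile.

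Class II genes are expressed by leukocytes, so leukocyte markers were set beside them. In whole tissue, fewer cells of a type and less RNA per cell cannot be told apart. The macrophage markers had 11 of 12 measured genes called higher and 0 called lower, where 17.1% of all genes were called higher. Their sums were 714.2 to 1217 normalized counts in controls and 2639, 1934 and 3158 in Ptf1a cKO mice 1 to 3. Emr1, which encodes F4/80, had 51.78, 37.44 and 33.60 against 161.3, 74.37 and 106.4 (log2 fold change 1.36, adjusted p = 0.00514), and the receptor Csf1r rose by 1.05 (adjusted p = 0.00352). The largest rises in this list were those of Cd14 (1.62, adjusted p = 0.00211), C1qb (1.5, adjusted p = 0.00983) and Lyz2 (1.44, adjusted p = 0.00455). Cd14 reached 27.6, as every gene of the table does in at least 1 library, in Ptf1a cKO libraries only. Mouse 2 exceeded every control for 11 of these 12 markers, but for 1 of the 6 class II genes. Relative to the macrophage sum, Cd74 was 0.523, 0.427 and 0.331 in controls and 0.944, 0.274 and 0.71 in Ptf1a cKO mice, so mouse 2 had the least Cd74 per macrophage transcript of all 6 and mouse 1 the most.

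**Figure D4:**
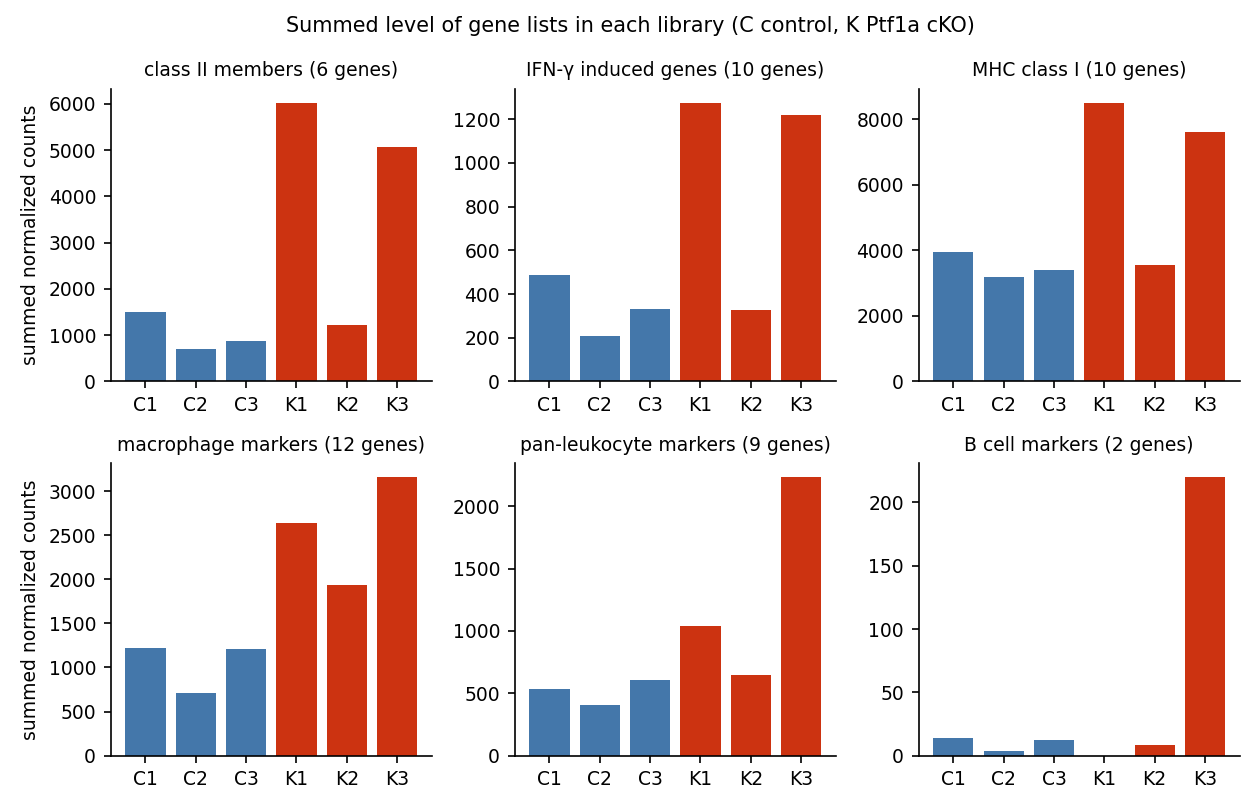
Summed normalized counts (bars from 0) of 6 gene lists in each library, C1 to C3 for control mice and K1 to K3 for Ptf1a cKO mice. The class II and interferon-γ induced sums are high in K1 and K3 and at control level in K2, the macrophage sum is above every control in K1, K2 and K3, and the B cell sum is 0 in K1 and 220.0 in K3.

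Lymphoid markers followed another order. The B cell markers Cd79b and Cd22 summed to between 3.827 and 13.61 normalized counts in controls and to 0, 8.792 and 220.0 in Ptf1a cKO mice 1 to 3. Cd79b alone was at 7.945, 2.511 and 6.772 in controls and at 0, 5.725 and 94.27 in Ptf1a cKO mice. Mouse 1, in which both B cell markers were listed at 0, had a Cd74 level of 2491, as high as the 2241 of mouse 3, in which they were highest. The 2 lymph node and high endothelial venule genes in the table summed to 405.0 in mouse 3 and to at most 54.88 in the other libraries, with the venule gene Glycam1 at 355.8 in mouse 3 and at no more than 2.249 elsewhere. The chemokine Cxcl13 was called higher (log2 fold change 2.04, adjusted p = 0.04), at 2.447, 3.565 and 11.12 in controls and 10.05, 54.88 and 49.21 in Ptf1a cKO mice. Unlike Glycam1, Cxcl13 was raised in mice 2 and 3, and mouse 1 lay within the control range. Every gene of the table reaches 27.6 in at least 1 library. Cd79b, Cd22 and Glycam1 did so in mouse 3 only, and Cxcl13 in Ptf1a cKO mice 2 and 3 only. Without mouse 3, H2-Aa was still called and the other 5 class II genes were not.

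Of 9 pan-leukocyte markers, 6 rose and 0 fell, where 17.1% of all genes were called higher. They summed to 408.3 to 610.5 normalized counts in controls and to 1040, 649.1 and 2233 in Ptf1a cKO mice. Ptprc, which encodes CD45, had 56.20, 22.75 and 49.17 against 86.62, 56.95 and 418.6 (log2 fold change 1.6, adjusted p = 0.0772). The largest rises were those of Rac2 (2.1, adjusted p = 0.0243), Cd52 (1.91, adjusted p = 0.0378) and Coro1a (1.69, adjusted p = 0.0491). Rac2 and Cd52 reached 27.6, as every gene of the table does in at least 1 library, in Ptf1a cKO libraries only. Their place in the table thus rested on the group in which they were high. Cd74 relative to Ptprc was 11.3, 13.4 and 8.18 in controls and 28.8, 9.3 and 5.35 in Ptf1a cKO mice, so the highest and the lowest ratio both belonged to Ptf1a cKO mice with high class II levels. T cell markers (3 of 10 listed were measured, 1 called higher, Thy1) summed to 35.72 to 69.77 in controls and 123.6, 139.1 and 358.2 in Ptf1a cKO mice. Most of the sum in mice 1 and 2 was Thy1, at 92.49 and 134.9. Cd4, whose product binds class II, was at 12.52, 2.646 and 14.69 against 11.98, 2.794 and 78.78 (adjusted p = 0.566, limma). Lck was at 11.26, 1.421 and 7.473 against 19.15, 1.43 and 93.66 (adjusted p = 0.359, limma). Both were clearly raised in mouse 3 alone, the only library in which either reached 27.6. Of 10 dendritic cell markers 2 were measured, with 0 called higher and 1 lower, Zbtb46 (log2 fold change -0.74, adjusted p = 0.0277; 0.666 under the same total), and Itgax and Flt3 were not analysed here. The other measured gene, Cst3, was at -0.16 (adjusted p = 0.386, limma). Its control mean of 3631 was far above the 42.71 of Ptprc. These 2 genes do not show whether dendritic cells changed. Without control mouse 2, 0 of the 9 pan-leukocyte markers were called higher, 2 without control mouse 1 or Ptf1a cKO mouse 1, 3 without control mouse 3, 1 without Ptf1a cKO mouse 3 and 9 without Ptf1a cKO mouse 2. The part of any of these cells in the class II levels was not tested.

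Duct markers moved with genotype too. Of 7 measured, 4 rose and 0 fell, where 17.1% of all genes were called higher. In the lead were Spp1 (log2 fold change 5.14, adjusted p = 0.000227), Sox9 (2.21, adjusted p = 2e-05) and Epcam (1.37, adjusted p = 9.18e-05). The keratin Krt19 was at a log2 fold change of -0.01 (adjusted p = 0.966). The sum of the 7 duct markers was 3977 to 4901 in controls and 92880, 25850 and 110300 in Ptf1a cKO mice 1 to 3. Most of it was Spp1, the gene of osteopontin, which macrophages also express. Mouse 2, with the lowest class II level, the highest remaining Ptf1a value and the largest acinar share, was again the lowest of its group. With 3 Ptf1a cKO mice, the extent of Ptf1a loss and the class II level could not be correlated.

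Partners of class II outside the endosome were measured only in part. Of the genes for the MIF family of Cd74 ligands and their co-receptors, Cd44 rose (log2 fold change 0.93, adjusted p = 0.0147, lost without control mouse 2 or Ptf1a cKO mouse 3), while Mif was at -0.74 (adjusted p = 0.0612) and Cxcr4 at 1.65 (adjusted p = 0.0997). Of 7 costimulatory and checkpoint ligands the table held Icosl, which rose from 20.81, 19.81 and 18.72 normalized counts to 45.14, 44.37 and 111.5 (log2 fold change 1.47, adjusted p = 0.0098). In contrast to the class II genes, Icosl was raised in mouse 2 as much as in mouse 1. Icosl and Cxcr4 reached 27.6, as every gene of the table does in at least 1 library, in Ptf1a cKO libraries only.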

How the data were processed

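Whole pancreas RNA from 3 control and 3 Ptf1a cKO mice was sequenced after standard Illumina library preparation. The submitters' processing notes name TopHat2 2.0.4, Bowtie 0.12.7.0, SAMtools 0.1.18.0, HTSeq 0.6.0 and the build mm9, and the study's methods name edgeR with TMM normalization. The deposited table holds 1 signal per gene symbol and library, namely normalized read counts that the authors scaled across the 6 libraries and that are not whole numbers. Whole reads could not be recovered, so no count model was fitted. Each of the 10245 genes reaches 27.6 in at least 1 library, and no gene mean is under 16.8. A gene with every control under 27.6 could enter through the Ptf1a cKO libraries alone. Of the genes named, this holds for Irf8, Ifi47, Plbd1, Usp18, Cd14, Cd52, Rac2, Cd79b, Cd22, Cd4, Lck, Glycam1, Cxcl13, Cxcr4 and Icosl. A further 3 entries name no gene; they held 75.7% to 82.6% of a library's normalized counts and were left out.

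Values were divided by 1 factor (13.6), log2(value + 0.25) was taken, and the groups were compared by limma 3.58.1 in R 4.3.3 (lmFit, then eBayes with trend, without covariates). Two-sided p-values were adjusted over all genes by Benjamini and Hochberg, with a threshold of 0.05. The pseudocount equals 3.41 normalized counts, so fold changes of low genes are understated. Exact two-sided permutation tests were run for single genes. Lists, ratios and likeness were computed in Python 3.11.15 with pandas 2.3.3. Gene lengths came from GENCODE M21 and promoter windows from RefSeq, both on GRCm38, while the counts were made on mm9. Depth is not recoverable from the values, and precision rests on 3 mice per group. Replicate numbers were not treated as pairs.

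Beside the 6 genes, the text names the measured genes of the class II, antigen processing, promoter factor and interferon-γ lists, defining markers and called genes of the other lists, and the 8 nearest other genes in profile. Dexi, Iigp1, H2-D1, Tapbp, Mif, Cxcr4, Cd4, Lck, Cd79b and Cd22 were named after their values were seen. Some genes of the lists are not reported here and were left out of list counts and sums. The members and lists were chosen with earlier results of these data known. Alternatives covered pseudocounts, filters, scalings, limma's trend left out, robust estimation, sex, the replicate number as a block, a stricter threshold, and each library left out in turn.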

Additional observations from a re-analysis of the deposited data

How the results depend on the processing

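The log2 fold change of each of the 6 class II genes was positive under every alternative that was run. Of the 6, 3 passed the threshold under the other pseudocounts, the other filters on low values, the median of ratios, the same 75th percentile and sex as a covariate. The filters on low values removed no gene, so those fits repeat the main one. Scaling to the same total gave 6 of the 6 and 9719 of all genes, and scaling to the same total without digestive enzymes gave 4 of the 6 (Ciita was added, adjusted p = 0.0497) and 4459 of all genes, with the median log2 fold change of all genes at 0.29. Leaving out limma's trend gave 1 of the 6, robust estimation 0, and an adjusted p under 0.01 gave 0 of the 6 and 1794 of all genes, against 3475. The cause of these changes was not tested, apart from the shift of the median. Leaving out 1 library at a time gave 0 to 6 of the 6 and 2363 to 3601 of all genes. With the same total, Ctsl (0.446), Ctsd (1.13), Atf1 (1.02), Ifngr2 (0.905), Dexi (0.397) and Zbtb46 (0.666) turned from lower to higher in log2 fold change. Over all fold changes, 604 alternatives kept direction and side of the threshold, 95 lost it, 36 gained it and 6 turned. The 604 include the filter fits that repeat the main one.

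A replicate block gave 6 of the 6 class II genes and 3525 of all genes. Nothing says that equal numbers mark a pair, and the deviations of same-numbered mice correlated at 0.0391, 0.134 and 0.144 across genes, while control 2 and Ptf1a cKO 1 reached 0.0829, so the numbers were not taken as pairs. Count models (edgeR, DESeq2) were not run, since whole reads could not be recovered.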
